A study of Xenopus laevis with 39 samples.

Results

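A mucin, an intelectin, a uromodulin-like protein, a microseminoprotein and a small Ly6-type protein make up a set of 5 genes for secreted proteins in the olfactory organ of the frog Xenopus laevis. They are muc19.L, itln1.S, umod.2.L, msmb.3.L and slurp1l.S, 5 of the 37223 genes counted. The genes were chosen from earlier results of these same libraries, in which they stood out for large differences between adult and larval noses or among the larval groups, so the contrasts taken to have picked them are given below as values with no test. The same holds for the differences of other whole noses from control noses for itln1.S, which is high in the controls, and slurp1l.S, which is low in them. It also holds for muc19.L, umod.2.L and msmb.3.L in whole noses against controls. For msmb.3.L it holds in 7-week against 1-week noses and in bulbs after transection against control bulbs as well. It holds too for the step between the doses of slurp1l.S, and for all 5 genes in control noses against bulbs. Control noses are part of the choosing contrasts, so no p against them is independent of the choice. All 5 had enough reads to be tested in every model. The suffixes .L and .S name the 2 subgenomes of this species.

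The nasal epithelium is covered by a mucus layer that odorants must cross to reach the receptor neurons. Gel-forming mucins give mucus its body, and lectins and other small secreted proteins in it bind microbes or act on the cells below. In Xenopus, the skin of the embryo and tadpole carries mucus-secreting goblet cells, and intelectin 1 is one of their secreted products.

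Messenger RNA was sequenced in 13 groups of 3 libraries, 39 in all. Whole noses came from adults after metamorphosis (stage 66), from premetamorphic control larvae, from larvae 2 days, 1 week or 7 weeks after transection, and from larvae exposed for 5 h to amino acids at the dose number 200 or 1000, whose unit is incomplete in the titles. The principal cavity and the vomeronasal organ (VNO) of premetamorphic larvae were also taken apart. Olfactory bulbs came from premetamorphic control larvae and from larvae at the same 3 times after transection. The labels name 1 larval control group for each tissue, so the time since transection and the age of the larvae cannot be told apart, and the treated noses have no control of their own. Nothing in them tells if the 3 libraries of each group are separate animals, so the p-values measure the spread among these libraries and no more. In tissue samples, fewer cells of a type and less RNA per cell cannot be told apart either.

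Depth ran from 25.82 to 180.53 M counted reads per library, with a median of 69.66 M (M, megareads). Levels are counts per megaread (CPM) after TMM scaling, given in the order of libraries 1, 2 and 3, and log2 fold changes carry their standard error. An adjusted p is that of the edgeR quasi-likelihood test with Benjamini-Hochberg adjustment over all genes of a comparison, and a gene at an adjusted p under 0.05 is called higher or lower.

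The 5 genes were set beside epithelial markers. In control noses against control bulbs 19 of 20 epithelial marker genes were higher and none was lower, beside 39.7% of all tested genes higher and 35.1% lower. Of the 5 secreted protein genes all but muc19.L stood higher in these noses. Markers of other nose cells were higher too: 6 of 6 for leukocytes, 10 of 10 for multiciliated cells, 8 of 8 for ionocytes and 8 of 10 for receptor neurons. A higher level in noses than in bulbs therefore cannot tell an epithelial product from that of another nose cell. VNO library 1 stood apart from the other VNO libraries in some epithelial genes. The epithelial keratin krt15.L stood at 80.5 CPM in it, against 0.728 and 1.95 CPM in the others. A further keratin, krt2l.S, picked after its values had been seen, stood at 252, 1.32 and 4.44 CPM. The 20 epithelial markers summed to 8320, 5850 and 6370 CPM, a far smaller gap. In the same 3 libraries itln1.S and umod.2.L were high in library 1 alone, msmb.3.L was also highest there (7.11, 2.28 and 1.06 CPM), and muc19.L and slurp1l.S were close to a second library, as given below.

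Adjusted for gene length, as TPM (transcripts of a gene per megatranscript) in the deposited table, the 5 genes spanned several orders of magnitude in control noses. The mean level of umod.2.L was 282 ± 186 TPM (SD, n = 3), of itln1.S 166 ± 18.3, of msmb.3.L 11.0 ± 0.354 and of slurp1l.S 2.60 ± 1.58. The level of muc19.L was 0.00908 ± 0.0116 TPM. The group with the highest mean differed from gene to gene. It was the adult nose for muc19.L, the control nose for itln1.S, the nose 2 days after transection for umod.2.L, the nose 7 weeks after transection for msmb.3.L and the nose at dose 1000 for slurp1l.S, and each was the same on the CPM, TPM and normalised-count scales.

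**Figure D1:**
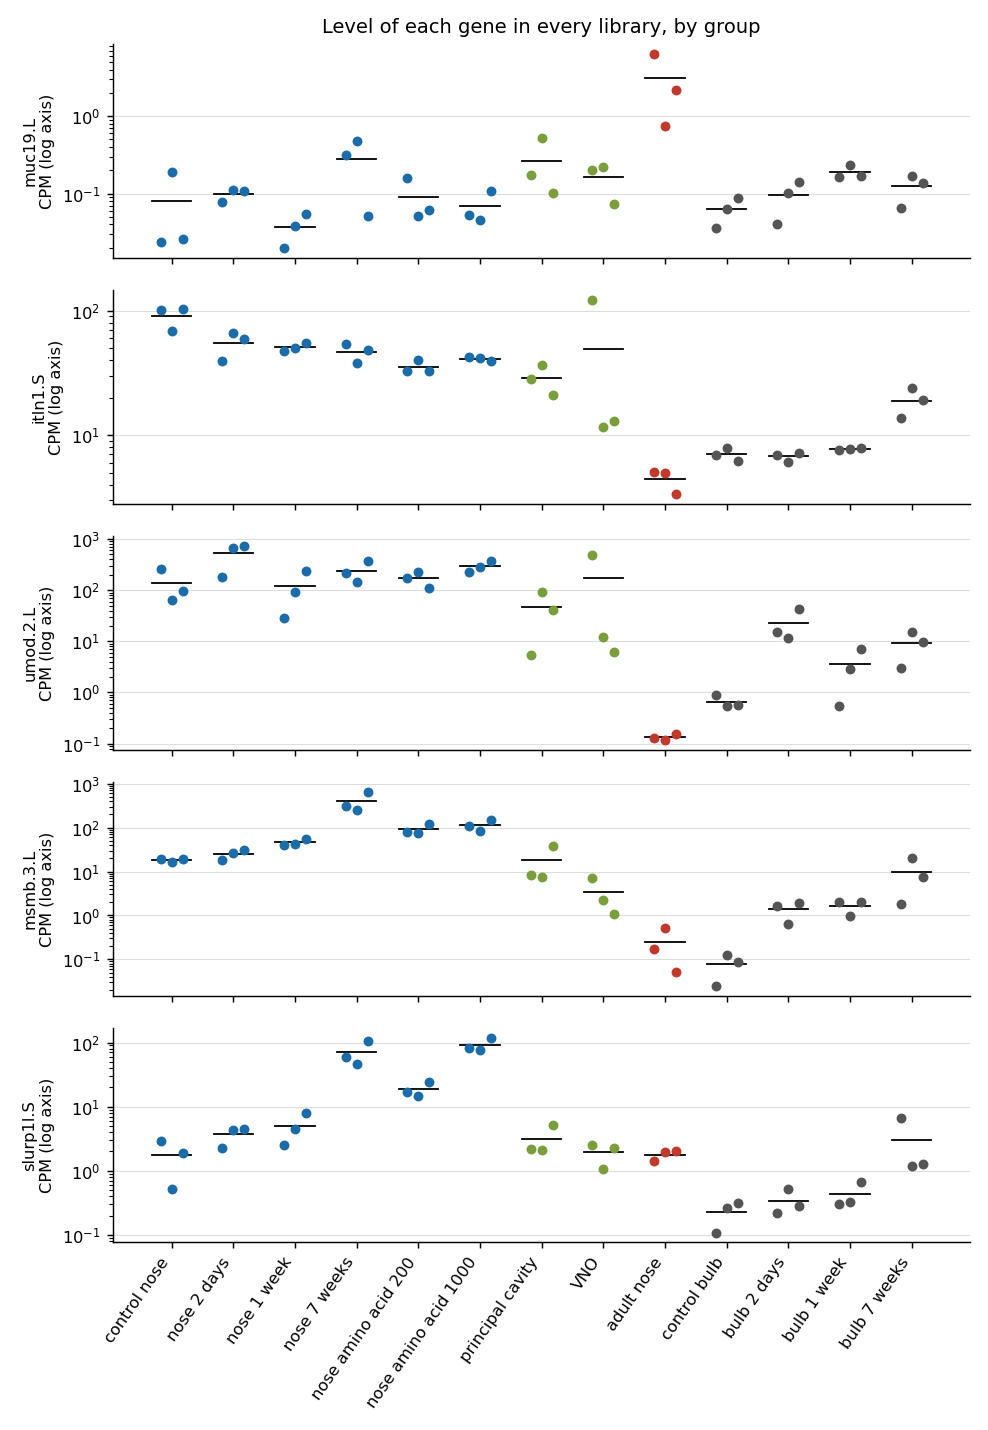
Level of each gene in every library (CPM, log axis, n = 3 libraries per group), with points for libraries, black lines for group means, whole larval noses in blue, dissected chambers in green, adult noses in red and bulbs in grey. Adult noses stand alone at the top for muc19.L (0.743 to 6.40 CPM) and at the bottom for umod.2.L (0.115 to 0.156 CPM).

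Counted by comparison, the calls among the 5 genes are read beside the share of all tested genes that were called. Against control noses, adult noses had 1 gene higher and 3 lower (45.3% of all genes called), and this contrast is treated as the one that chose the genes, so nothing is read from it. Noses at 2 days had 0 higher and 1 lower (20.2% of all genes), at 1 week 2 higher and 1 lower (39.7%), and at 7 weeks 2 higher and 1 lower (48.5%). The dose 200 gave 2 higher and 1 lower (35.4%) and the dose 1000 also 2 higher and 1 lower (49.5%). All 6 of these comparisons share the control noses. From 2 days to 1 week none of the 5 was called (10.4% of all genes), from 1 week to 7 weeks 3 were higher (33.5%), and from dose 200 to dose 1000 1 was higher (26.9%). None was called between principal cavity and VNO (15.2%), and 4 were higher in control noses than in control bulbs (74.8%). Bulbs had 2 higher at 2 days (46.2%), 2 at 1 week (56.0%) and 4 at 7 weeks (65.9%), with none lower, and these 3 comparisons share the control bulbs. Several of these counts hold contrasts or libraries that chose a gene, and with so few genes none is read as particular to them.

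**Figure D2:**
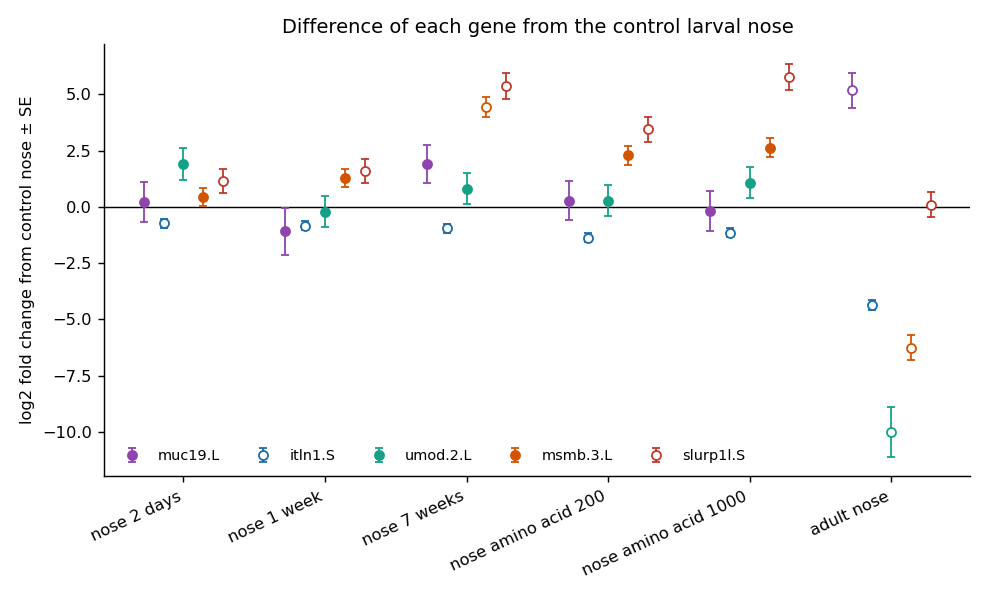
Log2 fold change of each gene from the control larval nose, with bars for the standard error (n = 3 libraries per group). Open circles mark differences given with no test, and the filled circles are also given with no test. The increase of msmb.3.L was 4.44 at 7 weeks, and itln1.S lies below 0 in all 6 comparisons, between -0.73 and -4.35.

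The gene muc19.L encodes a gel-forming mucin, known in mammals from salivary and other mucous glands. Adult noses held 445, 58 and 213 reads of it, or 6.40, 0.743 and 2.21 CPM. Control noses held 1, 14 and 2 reads, or 0.0239, 0.189 and 0.0257 CPM. The adult libraries lay above all libraries of the other 12 groups, whose highest value was 0.524 CPM in principal cavity library 2. The adult-to-control difference was 5.17 ± 0.79 on the log2 scale, and it was 4.11 without adult library 1 and 6.88 without control library 2.

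In larval noses muc19.L was close to the limit of detection. The 7-week noses stood at 0.317, 0.481 and 0.0515 CPM and the 1-week noses at 0.0196, 0.0379 and 0.0549 CPM, which overlap. The 7-week noses were called higher (2.98 ± 0.96, adjusted p = 0.022). That call was lost without 7-week library 2 (adjusted p = 0.20), 1-week library 1 (0.072) or 1-week library 2 (0.058), at 1 to 32 reads per library. In noses against bulbs the sign itself turned without control nose library 2, from 0.49 ± 0.74 to -1.24, given with no test.

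Mucin genes, from a list of 13 that includes muc19.L and was written with these data already known, did not form a single pattern. In adult against control noses 7 of 13, muc19.L among them, were higher and 4 lower (22.7% and 22.6% of all genes), with a median log2 difference of 0.86 beside 0.00 over all tested genes. The membrane mucin muc1.L was higher (1.98 ± 0.16), as was the mucin-like otogl.L (2.28 ± 0.47), and otog.L was lower (-2.98 ± 0.33). After transection 0 of 13 were called at 2 days (20.2% of all genes), 2 were higher and 2 lower at 1 week (39.7%), and 1 was higher and 3 lower at 7 weeks (48.5%). The airway-type gel-forming mucin muc5ac.L rose at 1 week (1.45 ± 0.44), from a mean of 49.5 to 136 CPM, and the mucus-associated fcgbp.L fell at 1 week (-1.42 ± 0.24) and was above controls at 7 weeks (0.77 ± 0.23). At dose 1000 against dose 200, 2 of 13 were higher and 3 lower (26.9% of all genes called), with a median of -0.47 beside -0.02. The higher ones were both homeologs of muc1, muc1.L by 1.90 ± 0.16 and muc1.S by 1.88 ± 0.24. Among the lower were muc2.S (-6.24 ± 2.12) and otog.L (-0.96 ± 0.32). Between the chambers 1 of 11 tested mucins was higher in the principal cavity and 1 lower (15.2% of all genes called). The lower one, muc5ac.L, had a mean of 252 CPM in the VNO against 44.8 CPM in the cavity (-2.49 ± 0.48), and the higher one was fcgbp.S (4.27 ± 0.78).

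A second list held 50 genes of mucus secretory cells (regulators, glycosylating enzymes, channels and secretion machinery), of which 46 were tested in noses. In adults 23 were higher and 6 lower (22.7% and 22.6% of all genes), with a median of 0.33 beside 0.00 over all genes. Among them the water channel aqp5.S was higher (4.27 ± 0.36), as was the chloride channel cftr.S (5.87 ± 0.40), and the protease capn9.L was lower (-4.71 ± 0.27). At 7 weeks 7 were higher and 15 lower (48.5% of all genes called), and at dose 1000 8 were higher and 15 lower (49.5%), shares near those of all genes, the medians being -0.35 and -0.01 beside -0.08 and 0.02. The secretory regulator creb3l1.L fell in both, by 2.87 ± 0.33 and 2.86 ± 0.30 on the log2 scale, while xbp1.L, a regulator of secretory capacity, rose at dose 1000 (1.85 ± 0.16). The 9 marker genes of goblet or secretory cells, itln1.S and muc19.L among them, summed to between 270 and 515 CPM in control noses and between 326 and 403 CPM in adults. Of these 9 markers 5 were higher and 2 lower in adults, with a median log2 difference of 1.53, and that count includes both genes chosen by this contrast.

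The gene itln1.S encodes intelectin 1, a secreted lectin that binds microbial sugars. Control noses held 101, 68.6 and 102 CPM, the highest libraries of any whole-nose group. Noses at 2 days held 39.3, 66.4 and 59.5 CPM, at 1 week 47.7, 50.1 and 54.9 CPM, and at 7 weeks 54.4, 38.2 and 48.3 CPM. The libraries of each of these groups lay below all control libraries.

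The log2 differences of itln1.S from controls were -0.73 ± 0.19 at 2 days, -0.84 ± 0.19 at 1 week and -0.95 ± 0.19 at 7 weeks, with no test because the high control level is part of what chose the gene. Neighbouring times did not differ by the test, with -0.11 ± 0.19 from 2 days to 1 week (adjusted p = 0.78) and -0.12 ± 0.19 from 1 week to 7 weeks (adjusted p = 0.67). In the deposited TPM the 7-week libraries (71.0, 44.1 and 50.5) all lay below the 1-week libraries (78.7, 83.0 and 95.1), a gap that CPM does not show.

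The treated noses were low as well. They held 33.0, 39.9 and 32.9 CPM of itln1.S at dose 200 and 42.1, 41.5 and 39.2 CPM at dose 1000. All 6 lay below the control libraries (-1.37 ± 0.19 and -1.15 ± 0.19), and the dose difference of 0.23 ± 0.19 did not pass the test (adjusted p = 0.42). Adult noses held 5.03, 5.01 and 3.35 CPM, below every other group including the bulbs, a difference of -4.35 ± 0.22 from controls. The homeolog itln1.L had between 1 and 3 reads in the 3 control noses and no more than 173 reads in any library.

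Of 23 tested genes for mucosal lectins and defence proteins, a list that includes itln1.S, 2 were higher and 2 lower at 2 days (20.2% of all genes called), 6 and 7 at 1 week (39.7%), 5 and 6 at 7 weeks (48.5%), 4 and 8 at dose 200 (35.4%), and 2 and 9 at dose 1000 (49.5%). Several of these counts lie near the share of all genes. The medians were -0.09, -0.09, -0.31, -0.45 and -0.64, beside medians between -0.08 and 0.02 over all genes. The galectin lgals4.S fell at 2 days (-0.50 ± 0.17), 1 week (-0.92 ± 0.17) and dose 200 (-1.19 ± 0.17). Adult noses gave 8 higher and 5 lower, itln1.S counted, beside 45.3% of all genes called, and among the higher were goose-type lysozyme lyg2.L (7.78 ± 0.47), galectin lgals1.S (5.91 ± 0.57) and the ficolin fcn2.L (4.86 ± 0.35).

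The gene umod.2.L is named for uromodulin, a zona pellucida (ZP) domain glycoprotein that forms filaments in the urine of mammals. Its libraries spread widely within groups. Control noses held 257, 65.4 and 94.4 CPM, and noses at 2 days held 181, 656 and 739 CPM. The 1-week noses held 28.1, 90.2 and 240 CPM, and the 7-week noses 215, 144 and 368 CPM. Libraries of each group overlapped with those of the controls.

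From controls the log2 differences of umod.2.L were 1.91 ± 0.71 at 2 days, -0.22 ± 0.69 at 1 week and 0.80 ± 0.69 at 7 weeks. They have no test, since the control level is part of what chose the gene. The 2-day difference was 2.34 without 2-day library 1 and 2.71 without control library 1. The drop of -2.13 ± 0.71 from 2 days to 1 week missed the threshold in edgeR (adjusted p = 0.072) and passed it with the Wald test of DESeq2 (adjusted p = 0.0081). At dose 200 umod.2.L stood at 173, 226 and 111 CPM and at dose 1000 at 231, 280 and 369 CPM. The differences from controls were 0.28 ± 0.69 and 1.08 ± 0.69, also with no test.

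Adult noses held 9, 9 and 15 reads of umod.2.L, or 0.129, 0.115 and 0.156 CPM, less than in control bulbs (0.872, 0.544 and 0.567 CPM). The difference from control noses was -9.99 ± 1.10, or -9.19 without control library 1. Its relatives remained at high levels in adults. umod.3.L stood at 433, 491 and 312 CPM in adults against 912, 1136 and 1224 CPM in controls (-1.40 ± 0.25), and umodl1.L at 135, 153 and 146 against 266, 401 and 343 CPM (-1.22 ± 0.24). Of 19 tested ZP domain genes, umod.2.L among them, 6 were higher and 3 lower in adults (median 0.02, 45.3% of all genes called). One of the lower is umod.2.L itself, which this contrast chose, and the higher include cuzd1.2.S (2.45 ± 0.41).

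The 3 uromodulin-type genes followed different courses after transection. In contrast to umod.2.L, umodl1.L fell at 2 days (-2.03 ± 0.25, adjusted p = 2.8e-05) and further at 1 week (-3.83 ± 0.27, adjusted p = 1.2e-08). umod.3.L stood at 0.14 ± 0.24 and 0.20 ± 0.24 at these times, with neither difference passing the test (adjusted p = 0.75 and 0.54), and fell at 7 weeks (-1.29 ± 0.25, adjusted p = 0.00023). At dose 1000 umod.3.L was lower too (-1.13 ± 0.25, adjusted p = 0.00073), while at dose 200 its difference was 0.37 ± 0.24 (adjusted p = 0.25). Over the list of 19 ZP domain genes 4 were higher and 1 lower at 2 days (20.2% of all genes called), 4 and 1 at 1 week (39.7%), and 4 and 5 at 7 weeks (48.5%).

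The gene msmb.3.L belongs to the beta-microseminoproteins, small cysteine-rich secreted proteins known in humans from prostate fluid. Control noses held 19.8, 16.7 and 19.2 CPM and noses at 2 days 18.7, 26.9 and 30.5 CPM. Noses at 1 week held 40.3, 42.6 and 54.5 CPM, and at 7 weeks 305, 249 and 649 CPM. The 7-week libraries lay above all 36 other libraries, and the 1-week libraries above all control and 2-day libraries.

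From controls the log2 difference of msmb.3.L was 0.44 ± 0.40 at 2 days and 1.30 ± 0.40 at 1 week. The latter was 1.16 without 1-week library 3. Neither has a test, since the control level is part of the contrasts taken to have picked the gene. The 7-week level, part of what made the gene stand out, was 21.7 times that of controls (4.44 ± 0.45) and 8.79 times that at 1 week (3.14 ± 0.43), given with no test.

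The amino acid noses were higher as well. They held 78.8, 76.0 and 117 CPM at dose 200 and 111, 84.6 and 149 CPM at dose 1000, all above the 1-week noses. Against controls the differences were 2.28 ± 0.41 and 2.63 ± 0.42, with no test because the control level is part of what chose the gene. The 2 doses did not differ by the test (0.35 ± 0.39, adjusted p = 0.57). Adult noses held 0.173, 0.525 and 0.0518 CPM, from 12, 41 and 5 reads. The adult difference was -6.25 ± 0.56, and -7.44 without adult library 2.

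Its neighbour in name, msmb.1.L, moved the same way. It stood at 19.6, 10.6 and 16.1 CPM in controls. At 2 days it was called higher (0.91 ± 0.30, adjusted p = 0.038), though its libraries overlapped with controls. It rose without overlap at 1 week (1.41 ± 0.30, adjusted p = 0.0012) and 7 weeks (2.88 ± 0.31, adjusted p = 1.2e-06). At doses 200 and 1000 it rose by 1.59 ± 0.30 (adjusted p = 0.00054) and 1.34 ± 0.30 (adjusted p = 0.0012). The homeolog msmb.3.S had at most 28 reads in any library. How reads of similar copies were shared out between msmb.1.L and msmb.3.L was not examined. The p-values of msmb.1.L rest on the same control noses and are no independent test of msmb.3.L.

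The gene slurp1l.S encodes a small secreted protein of the Ly6 family. The RefSeq gene table of the assembly Xenopus_laevis_v10.1 lists XLURP-1 among its synonyms, a gene known in Xenopus embryos as a marker of myeloid blood cells, and it is the only 1 of the 5 names that matched a symbol there. Control noses held 2.86, 0.512 and 1.92 CPM and noses at 2 days 2.29, 4.36 and 4.54 CPM. Noses at 1 week held 2.55, 4.55 and 8.03 CPM, and at 7 weeks 60.2, 45.5 and 107 CPM. The 7-week libraries were all above those of the earlier times, which overlapped with one another.

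From controls the log2 difference of slurp1l.S was 1.13 ± 0.53 at 2 days and 1.58 ± 0.53 at 1 week, the latter 1.06 without 1-week library 3. At 7 weeks the difference from controls was 5.38 ± 0.58 and from 1 week 3.80 ± 0.53, and slurp1l.S ranked among the largest increases in both.

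The treated noses separated by dose. slurp1l.S stood at 17.1, 14.8 and 24.0 CPM at dose 200 and at 82.3, 77.5 and 118 CPM at dose 1000, with no overlap. Dose 200 stood above controls by 3.44 ± 0.54 on the log2 scale, and dose 1000 stood 5.02-fold above dose 200 (2.33 ± 0.49). The difference of dose 1000 from controls was 5.77 ± 0.59. That contrast is among those taken to have picked the gene, so the step between the doses, which rests on the same libraries, has no test. Adult noses, at 1.42, 1.95 and 2.01 CPM, overlapped with controls (0.09 ± 0.55, and -0.35 without control library 2).

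Levels of some white cell genes were set beside slurp1l.S in control, 7-week and dose 1000 noses. The peroxidases mpo.L (neutrophils) and epx.L (eosinophils) were picked after their values had been seen. mpo.L stood at 23.7, 26.2 and 30.2 CPM in control noses, at 40.1, 69.1 and 50.1 CPM at 7 weeks, and at 56.9, 75.5 and 108 CPM at dose 1000. epx.L stood at 15.7, 15.4 and 19.7 CPM in control noses, at 25.7, 52.3 and 35.3 CPM at 7 weeks and at 26.2, 28.9 and 46.6 CPM at dose 1000. Both therefore ran higher at 7 weeks and dose 1000 than in controls, by far less than slurp1l.S itself. Their levels in the other nose groups, and those of the homeolog mpo.S, are not weighed here. A pair picked in this way cannot stand for white cells as a whole.

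The 6 leukocyte markers followed another order. They summed to between 37.7 and 47.5 CPM in controls, 65.3 and 78.5 at 2 days, 25.4 and 47.2 at 7 weeks, and 60.8 and 68.1 at dose 1000. Their sum thus reached its highest value among these groups at 2 days, where slurp1l.S held 2.29 to 4.54 CPM. At 2 days 4 of 6 were higher (20.2% of all genes called), at 7 weeks 1 was higher and 2 lower (48.5%), and at dose 1000 3 were higher (49.5%). The counts at 7 weeks and dose 1000 lie near the share of all genes. The part of white cells in the level of slurp1l.S was not tested.

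**Figure D3:**
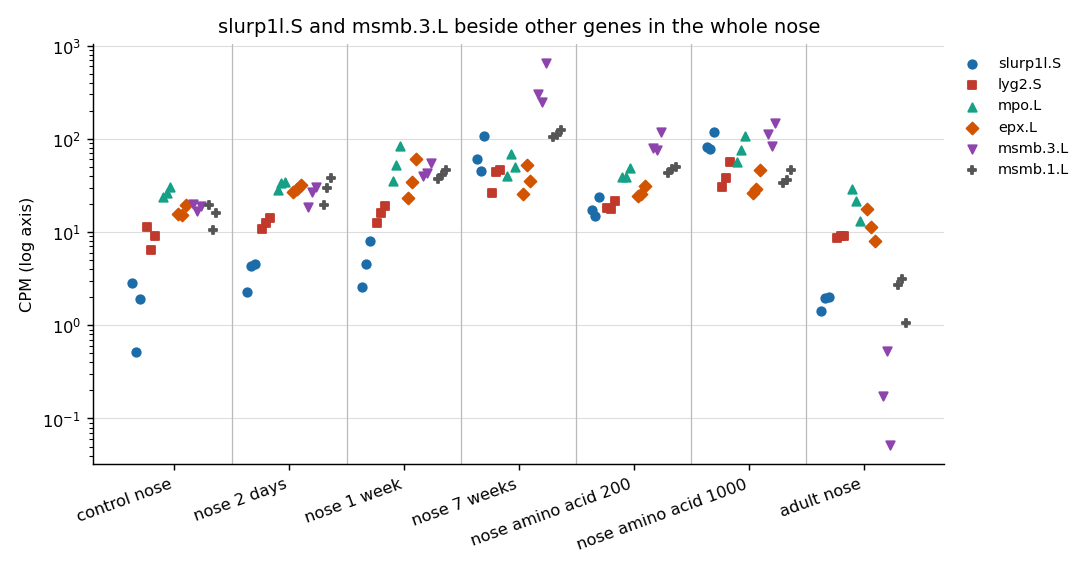
Levels of slurp1l.S and msmb.3.L in whole noses beside lyg2.S, mpo.L, epx.L and msmb.1.L (CPM, log axis, each point 1 library, n = 3 per group). From control to dose 1000 slurp1l.S goes from between 0.512 and 2.86 to between 77.5 and 118 CPM, and msmb.3.L is lowest in adults, at 0.0518 to 0.525 CPM.

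Of 11 Ly6-family genes tested in noses, slurp1l.S among them, 2 were higher and none lower at 2 days (20.2% of all genes called), 2 and 1 at 1 week (39.7%), 3 and 1 at 7 weeks (48.5%), 3 and 3 at dose 200 (35.4%), and 3 and 4 at dose 1000 (49.5%). The family did not move as one. psca.L fell at dose 200 (-0.97 ± 0.19) and dose 1000 (-1.55 ± 0.19) where slurp1l.S stood higher, ly6e.L rose at dose 1000 (0.70 ± 0.19), and lypd2.L rose at 2 days (0.91 ± 0.21). In adults 2 were higher and 5 lower, the median being -0.47 beside 0.00, with psca.L (-4.53 ± 0.22) and lypd2.L (-2.85 ± 0.22) lower and ly6e.L higher (1.85 ± 0.19). The homeolog slurp1l.L had at most 58 reads in any library.

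Levels of the keratins krt15.L and krt2l.S, the latter picked after its values had been seen, were set beside those of msmb.3.L and slurp1l.S. krt15.L stood at 99.2, 143 and 116 CPM in control noses, at 19.4, 8.69 and 11.8 CPM at 7 weeks, at 16.5, 15.5 and 12.0 CPM at dose 200 and at 5.65, 2.64 and 5.62 CPM at dose 1000. krt2l.S stood at 386, 331 and 374 CPM in controls, at 4.98, 4.4 and 1.85 CPM at 7 weeks, at 3.41, 7.14 and 5.37 CPM at dose 200, at 1.17, 0.875 and 0.723 CPM at dose 1000 and at 0.173, 0.205 and 0.321 CPM in adults. Both keratins were thus lower in the 7-week and treated groups than in controls with no overlap, and krt2l.S was lower again in adults. In those 7-week and treated groups msmb.3.L and slurp1l.S stood higher. In adults msmb.3.L was low and slurp1l.S overlapped with controls. At 2 days and 1 week, krt2l.S held 102 to 255 CPM, also below all control libraries. Over the 20 epithelial markers 2 were higher and 10 lower at 7 weeks (48.5% of all genes called), 1 and 8 at dose 200 (35.4%), and 7 and 9 at dose 1000 (49.5%). Their sum ran from 7820 to 9170 CPM in controls, from 4580 to 5560 at 7 weeks and from 6360 to 6540 at dose 1000. Whether the 5 h treatment, the larvae's stage or the makeup of the dissected tissue goes with these levels was not tested.

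The principal cavity and the VNO were compared to ask which chamber holds the transcripts. itln1.S stood at 28.2, 36.8 and 21.2 CPM in the cavity and at 122, 11.6 and 12.9 CPM in the VNO. umod.2.L stood at 5.35, 92.7 and 41.0 CPM in the cavity and at 499, 12.1 and 6.11 CPM in the VNO. For both genes the VNO group is 1 high library and 2 low ones. The high one also held more of the keratins krt15.L and krt2l.S, while the sum of the 20 epithelial markers was 8320 CPM in it against 5850 and 6370 CPM.

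With all libraries neither gene differed between the chambers by the test (itln1.S -0.78 ± 0.98, adjusted p = 0.65, and umod.2.L -1.91 ± 1.86, adjusted p = 0.55). Without VNO library 1 both signs turned: itln1.S was higher in the cavity by 1.27 and umod.2.L by 2.37. Both values are given with no test, since that library is singled out by its own high levels of these genes. The part of surrounding epithelium in VNO library 1 was not tested.

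The other 3 genes gave no call between the chambers either. msmb.3.L stood at 8.18, 7.54 and 37.7 CPM in the cavity and at 7.11, 2.28 and 1.06 CPM in the VNO, without overlap (2.35 ± 0.96, adjusted p = 0.17), and was called with a single fit of all libraries (2.5, adjusted p = 0.0059). slurp1l.S stood at 2.22, 2.09 and 5.10 CPM against 2.5, 1.07 and 2.30 CPM (0.69 ± 0.48, adjusted p = 0.38). muc19.L, at 5 to 32 reads per library, held 0.173, 0.524 and 0.101 CPM against 0.204, 0.219 and 0.0738 CPM (0.69 ± 0.86, adjusted p = 0.64). The relatives umod.3.L and umodl1.L were higher in the cavity, by 3.25 ± 0.22 (adjusted p = 0.00015) and 3.35 ± 0.37 (adjusted p = 0.0011), and VNO library 1 was as low as the other VNO libraries for both.

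**Figure D4:**
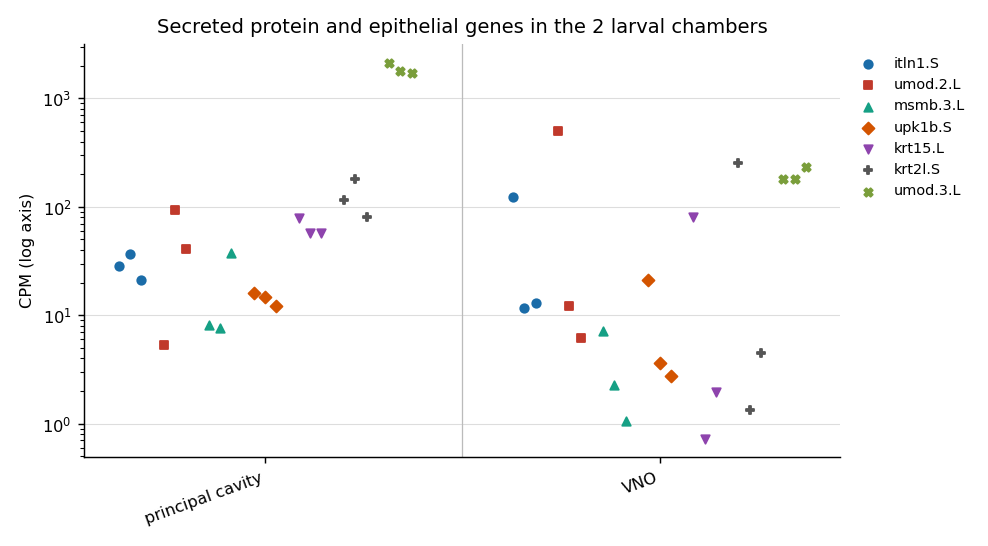
Levels of itln1.S, umod.2.L, msmb.3.L and umod.3.L beside the epithelial genes upk1b.S, krt15.L and krt2l.S in the dissected chambers (CPM, log axis, each point 1 library, libraries 1 to 3 from left to right). In the VNO, library 1 stands above the others for umod.2.L (499 against 12.1 and 6.11 CPM) as for krt15.L (80.5 against 0.728 and 1.95 CPM), and umod.3.L shows no such gap. The sum of the 20 epithelial markers differed far less (8320 against 5850 and 6370 CPM). krt2l.S was picked after its values had been seen, and upk1b.S for a pattern like that of itln1.S and umod.2.L.

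Control noses were set against control bulbs to show how far the transcripts belong to the nose. itln1.S stood at 101, 68.6 and 102 CPM in noses and at 6.99, 7.90 and 6.18 CPM in bulbs (3.74 ± 0.21). msmb.3.L, at 0.0242, 0.125 and 0.0881 CPM in bulbs, was 7.82 ± 0.89 higher in noses on the log2 scale (7.05 with homeologs summed). For umod.2.L the difference was 7.77 ± 1.21 (6.95 without control nose library 1). These 3 differences have no test, since the high level in control noses is part of what chose the genes. For slurp1l.S, at 0.109, 0.259 and 0.315 CPM in bulbs, the difference was 2.94 ± 0.82. It has no test either, since the control noses are part of the contrasts taken to have picked the gene. Among the related lists 10 of 10 tested Ly6-family genes, 8 of 12 mucins and 38 of 48 secretory cell genes were higher in noses, and 0, 0 and 6 were lower, beside 39.7% of all genes higher and 35.1% lower.

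After transection transcripts of some of these genes were also higher in bulbs. Of the 5, 2 were higher at 2 days, 2 at 1 week and 4 at 7 weeks, beside 46.2%, 56.0% and 65.9% of all genes called. umod.2.L stood at 0.872, 0.544 and 0.567 CPM in control bulbs and rose to 15.0, 11.5 and 42.5 CPM at 2 days. The difference was 5.03 ± 0.96 (adjusted p = 0.0016), and 4.25 without 2-day library 3. umod.2.L ranked 7 among the named increases there, just outside the cut-off for leaving out a test. That cut-off was set after values were seen, so this p is no independent test. Later bulb times rest on the same control bulbs. At 1 week umod.2.L stood at 0.534, 2.86 and 7.17 CPM, overlapping with controls (2.30 ± 0.94, adjusted p = 0.058). The 1-week difference passed in DESeq2 (adjusted p = 0.018) and without 1-week library 1 (2.85, adjusted p = 0.011). At 7 weeks umod.2.L held 3.04, 15.5 and 9.79 CPM, above all controls (3.84 ± 0.94, adjusted p = 0.0039). Its relatives umod.3.L and umodl1.L were also higher in bulbs at 2 days, 1 week and 7 weeks, without overlap with controls. The log2 differences of umod.3.L were 1.88 ± 0.47, 2.5 ± 0.48 and 2.96 ± 0.48. Those of umodl1.L were 1.12 ± 0.16, 2.05 ± 0.16 and 2.82 ± 0.16. The bulb increase is therefore not particular to umod.2.L.

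msmb.3.L was above controls at each time. It held 1.61, 0.624 and 1.94 CPM at 2 days (3.98 ± 0.98, and 3.27 with homeologs summed). At 1 week it held 1.97, 0.966 and 2.00 CPM (4.21 ± 0.97, and 3.51 with homeologs summed). Both differences have no test, since the low control bulbs are part of the 7-week contrast taken to have picked the gene. At 7 weeks it held 1.85, 20.3 and 7.65 CPM, a difference of 6.87 ± 0.96 that is given as a value, since msmb.3.L ranked among the largest increases there, and of 5.83 without 7-week library 2. Its relative msmb.1.L rose at all 3 times, by 4.68 ± 0.48, 5.02 ± 0.48 and 6.37 ± 0.47.

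The other genes moved late or little. itln1.S overlapped with controls at 2 days and 1 week and rose at 7 weeks to 13.6, 23.8 and 19.1 CPM (1.42 ± 0.16, adjusted p = 4.7e-06). In the deposited TPM the 7-week bulbs stood at 17.3, 39.9 and 34.7, so library 1 overlapped with the control bulbs (16.7, 18.4 and 15.2). slurp1l.S rose at 7 weeks to 6.70, 1.20 and 1.27 CPM (3.74 ± 0.73, adjusted p = 0.00069). Library 1 carries much of that: the difference was 2.41 without it (adjusted p = 0.0002). muc19.L, at 10 to 19 reads per library at 1 week, was called higher there (1.5 ± 0.5, adjusted p = 0.021), a call lost with a single fit of all libraries (adjusted p = 0.12), without 1-week library 2 (0.075) and without control bulb library 1 (0.082) or 2 (0.065).

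Keratin transcripts were also present in the bulbs after transection. krt15.L stood at 0.0606, 0.0535 and 0.0504 CPM in control bulbs and at 7.73, 1.38 and 16.1 CPM at 2 days, 1.44, 1.79 and 2.63 CPM at 1 week and 0.983, 0.511 and 0.480 CPM at 7 weeks. krt2l.S stood at 0.715, 0.491 and 0.416 CPM in control bulbs and at 26.3, 5.58 and 62.0 CPM at 2 days. In the 2-day bulbs umod.2.L, msmb.3.L and both keratins had the same order, library 3 highest and library 2 lowest. itln1.S had that order too (6.92, 6.10 and 7.21 CPM), while slurp1l.S (0.216, 0.523 and 0.284 CPM) and muc19.L (0.0405, 0.101 and 0.142 CPM) did not. At 7 weeks krt2l.S was at 0.805, 0.959 and 0.561 CPM, while umod.2.L, msmb.3.L, itln1.S and muc19.L all had library 2 highest and library 1 lowest. slurp1l.S had library 1 highest there (6.70, 1.20 and 1.27 CPM). The 7-week noses themselves held little krt2l.S, as given above, and krt15.L stayed above all control libraries in the 7-week bulbs.

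Over the epithelial marker list 9 of 19 tested genes were higher and 1 lower at 2 days (46.2% of all genes called), 6 and 1 at 1 week (56.0%), and 6 and 4 at 7 weeks (65.9%). Their sum ran from 254 to 293 CPM in control bulbs, from 345 to 508 at 2 days, from 255 to 289 at 1 week and from 181 to 292 at 7 weeks. The goblet and secretory markers summed to between 11.1 and 18.7 CPM in control bulbs and between 10.2 and 13.5 CPM at 2 days, with 0 of 8 called. The part of epithelial tissue carried along with the bulbs was not tested.

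**Figure D5:**
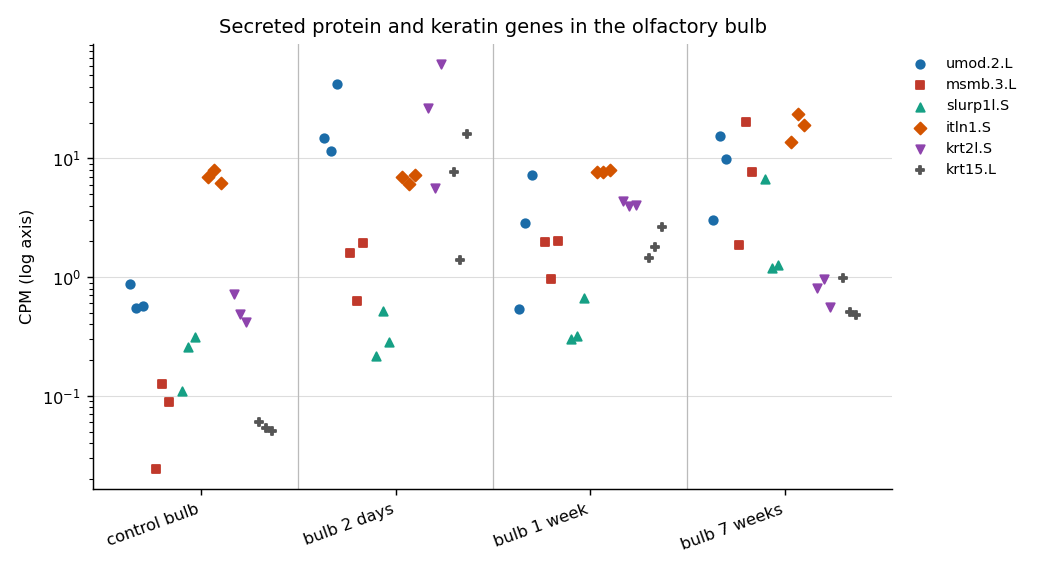
Levels of umod.2.L, msmb.3.L, slurp1l.S and itln1.S in the bulb groups beside the keratins krt2l.S and krt15.L (CPM, log axis, each point 1 library, libraries 1 to 3 from left to right). At 2 days umod.2.L (11.5 to 42.5 CPM) and both keratins lie above control bulbs. At 7 weeks itln1.S reaches 13.6 to 23.8 CPM and krt2l.S lies between 0.561 and 0.959 CPM, while krt15.L still lies above control bulbs. krt2l.S was low in 7-week noses too.

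The patterns of the 5 genes over the 27 nose-side libraries were compared as a description, on log2 of CPM after 1 was added. The libraries share their groups, so a correlation mostly reflects group levels, and they include the adult noses whose values chose the genes. itln1.S and umod.2.L were most alike (Pearson r = 0.87, n = 27 libraries), followed by msmb.3.L and slurp1l.S (0.81) and by umod.2.L and msmb.3.L (0.77).

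The most similar of 17390 named genes, each averaging 5 CPM or more in some group, were looked up. For itln1.S they were the dermatan sulfate epimerase dse.S (r = 0.967), sphk1.L (0.938), the galectin lgals3.L (0.929), the uroplakin upk1b.S (0.918) and keratin krt75.L (0.915). For umod.2.L they were upk1b.S (0.916), gcm1.L (0.881), slco2b1.S (0.88), itln1.S (0.867) and keratin krt12.L (0.865). upk1b.S, known in mammals from the surface layer of the bladder lining, appears for both, and stood at 37.4, 40.2 and 32.4 CPM in control noses and at 1.01, 1.11 and 0.56 CPM in adults.

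For msmb.3.L the most similar genes were fah.L (r = 0.968), msmb.1.L (0.967), eif3b.S (0.952), arid3a.L (0.946) and gldc.S (0.944). For slurp1l.S they were the goose-type lysozyme lyg2.S (0.966), kpna1.L (0.964), nle1.S (0.961), tpt1.S (0.959) and gadd45g.S (0.953). lyg2.S stood at 11.5, 6.47 and 9.16 CPM in control noses, at 26.1, 44.1 and 46.8 CPM at 7 weeks and at 30.7, 37.7 and 55.9 CPM at dose 1000. For muc19.L, fads6.S and dnase1l2.L (both 0.945), tgm6.L (0.94), serpinb5.L (0.93) and serpinb10.S (0.929) came closest. Of these 25 matches 6 were found again with Spearman's rho and 8 over the 21 whole-nose libraries.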

How the data were processed

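The submitters' processing notes name bcl2fastq 2.17.1.14, the aligner STAR 2.5, and featureCounts from Subread 1.5.0 for the 39 libraries. Which genome build was used is not given in the sources used here. The raw counts deposited by the authors (37240 named entries) entered all tests. Of these, 17 identical repeats were left out, and 1 more line came emptied. The normalised signal deposited by the authors and the TPM values deposited by the authors, which are scaled by gene length, served only to compare levels. Since column names give a group and a running number, without the titles' library numbers, columns were assigned to groups alone and never paired.

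Tests used edgeR 4.0.16 under R 4.3.3 (filterByExpr, TMM factors, robust quasi-likelihood test) and Benjamini-Hochberg adjustment over all tested genes, at a threshold of 0.05. Noses (7 groups), bulbs (4 groups), the dissected chambers, and noses with bulbs were fitted separately. The procedure was tested on simulated data. Alternatives were RLE factors, DESeq2 1.42.0, no low-count filter, a single fit of all libraries, homeologs summed, and leaving out each library.

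The 5 genes and all lists were chosen with earlier results of these data known. Named beside them were every gene of the same symbol stem, the 5 most similar genes of each by Pearson r, and up to 4 called members per list and comparison of largest change with at least 1 CPM and libraries that do not overlap. A gene among the 6 largest named increases or decreases of a comparison has no test there, nor has a difference that rests on libraries whose level chose the gene. Both readings were set after values were seen, as were mpo.L, epx.L and krt2l.S.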

Additional observations from a re-analysis of the deposited data

Results flagged for a closer look

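At 7 weeks after transection itln1.S moved in opposite directions in the nose and the bulb. In noses all 3 libraries lay below all control noses (log2 fold change -0.95), whose high level is part of what chose the gene. In bulbs all 3 lay above all control bulbs in CPM (log2 fold change 1.42). In the deposited TPM bulb library 1 (17.3) overlapped with the control bulbs (16.7, 18.4 and 15.2). The difference between the tissues was not tested.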

How the results depend on the processing

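Leaving out 1 library at a time moved counts of called genes. From 6899 at 2 days in noses they ran from 3888 to 7235, from 3539 between 2 days and 1 week they ran from 1709 to 2409, from 9193 between the doses they ran from 5952 to 7995, and from 4768 between the chambers they ran from 1999 to 6053. A single fit of all libraries gave 2359 genes between 2 days and 1 week and 13486 between the chambers. It shifted the median log2 difference of all genes by -0.11 for dose 1000 against controls and by -0.12 between the doses. The share of higher genes among calls went from 51.0% to 39.7% between 1 week and 7 weeks with that fit, and from 60.8% between the doses to 46.2% with that fit and 49.9% with DESeq2.

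With 1 library left out, log2 differences changed sign for muc19.L at 2 days (-0.26 to 1.93), 1 week (-1.57 to 0.65), dose 200 (-0.59 to 2.00), dose 1000 (-0.75 to 1.45), between the doses (-1.02 to 0.39), between the chambers (-0.27 to 1.07) and in noses against bulbs (-1.24 to 0.94). They did so for umod.2.L at 1 week (-1.23 to 0.58), dose 200 (-0.01 to 1.08) and between the chambers (-2.92 to 2.37). The same held for itln1.S from 2 days to 1 week (-0.28 to 0.07), from 1 week to 7 weeks (-0.24 to 0.01), between the chambers (-1.24 to 1.27) and in bulbs at 1 week (-0.03 to 0.15), and for slurp1l.S in adults (-0.35 to 0.56) and from 2 days to 1 week (-0.07 to 0.76). None of these was called with all libraries. The causes were not tested, beyond the fewer libraries each leaves.

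Under the other settings 341 values were counted as the same, 4 gained a call and 5 lost it. The same means direction and call kept. For a gene chosen by its own comparison it means a shift smaller than the standard error, with no call read. No paired analysis was possible because the columns carry no library number of the titles. Depth limits muc19.L, which has at most 32 reads in every library outside adult noses.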
